A study of Mus musculus with 9 samples.

Results

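A set of 33 genes that carry out or steer glycolysis, gluconeogenesis, and glycogen turnover was read from mRNA sequencing of mouse liver. The genes were taken by name from a list of glucose metabolism genes, which was chosen with earlier results of these data known. All 33 had a row among the 24341 genes of the deposited table. The livers came from C57BL/6 wild-type mice. At 48 hours before collection, 3 mice (mice 2, 5, and 9) had received FGK45, an agonist antibody against CD40 (anti-CD40), and 6 control mice (mice 3, 4, 7, 8, 11, and 12) had received PBS. Mice were 8 to 12 weeks old unless otherwise stated, sexes were matched, and the 9 livers came from 1 experiment. Each library is whole liver, so it mixes hepatocytes with every other cell in the organ, and fewer cells of a type and less RNA per cell cannot be told apart. The comparison asks how transcripts for the use, production, and storage of glucose differed in the liver 48 hours after anti-CD40.

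The liver holds blood glucose steady. After a meal, hepatocytes take up glucose through GLUT2, phosphorylate it, and store it as glycogen, and during fasting they release glucose from glycogen and from gluconeogenesis. Leukocytes use other isoforms of the same enzymes, take up glucose through GLUT1 and GLUT3, burn it by glycolysis when activated, and export lactate. The 33 genes were therefore read in 3 classes: 11 leukocyte or widespread isoforms, 13 isoforms and enzymes typical of liver, and 9 others (enzymes common to most tissues, and muscle or brain isoforms).

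Promoter sequences are shown for 4 members because the classes moved in opposite directions: Slc16a3 and Hk2 rose, and Slc2a2 and Pck1 fell. Each is the 250 bases before a RefSeq transcript start in GRCm38.p6, the patched form of the mm10 build, written 5′ to 3′ on the strand of the gene. Capitals mark matches on either strand to ACGTG, a form of the core that hypoxia-inducible factors recognise, or TGACG, part of the cAMP response element. The letters searched overlap in the run TGACGTG, and ACGTG also lies within CACGTG, the E-box bound by ChREBP and MYC.
Slc16a3, chr11:120948817-120949066, plus strand: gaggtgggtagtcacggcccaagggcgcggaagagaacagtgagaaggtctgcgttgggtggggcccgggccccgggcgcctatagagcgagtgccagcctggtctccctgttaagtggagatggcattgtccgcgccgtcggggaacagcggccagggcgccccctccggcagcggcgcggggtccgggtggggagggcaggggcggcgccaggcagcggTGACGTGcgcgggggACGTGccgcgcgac
Hk2, chr6:82774455-82774704, minus strand: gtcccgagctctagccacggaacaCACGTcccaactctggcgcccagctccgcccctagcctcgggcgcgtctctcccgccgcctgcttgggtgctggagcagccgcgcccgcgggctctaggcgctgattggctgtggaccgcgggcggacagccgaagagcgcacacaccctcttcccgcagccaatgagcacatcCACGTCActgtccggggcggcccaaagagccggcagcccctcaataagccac
Slc2a2, chr3:28697653-28697902, plus strand: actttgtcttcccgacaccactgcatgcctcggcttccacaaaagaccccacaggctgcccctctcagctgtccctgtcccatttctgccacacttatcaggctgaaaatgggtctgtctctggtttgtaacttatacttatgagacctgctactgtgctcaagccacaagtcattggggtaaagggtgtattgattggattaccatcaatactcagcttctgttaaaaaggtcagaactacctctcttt
Pck1, chr2:173152823-173153072, plus strand: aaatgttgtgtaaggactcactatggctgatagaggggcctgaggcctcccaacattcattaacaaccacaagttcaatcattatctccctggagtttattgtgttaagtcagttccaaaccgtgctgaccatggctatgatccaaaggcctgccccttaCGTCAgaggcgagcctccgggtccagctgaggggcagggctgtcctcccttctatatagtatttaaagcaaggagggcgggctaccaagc
The Slc16a3 window held ACGTG beginning 27 and 14 bases before the start and TGACG beginning 29 bases before it. The Hk2 window held ACGTG beginning 226 and 52 bases before the start and TGACG beginning 50 bases before it, in each case on the opposite strand. The Pck1 window held TGACG on the opposite strand 90 bases before the start, and the Slc2a2 window held none of the letters searched. Of the 33 genes, 31 had a RefSeq promoter entry, and all windows of a gene were searched. A gene with more windows has more chances of a match. The 10 leukocyte or widespread isoforms had 16 windows and the 12 liver genes 19, as against 32851 for all 27025 genes. ACGTG was present for 14 of the 31 (45.2%), as against 18.5% of all 27025 genes with an entry. It was present for 8 of 10 leukocyte or widespread isoforms (Hk2, Hk3, Pfkfb3, Aldoa, Pkm, Ldha, Slc16a3, and Slc2a1) and for 3 of 12 liver genes (Pcx, Pygl, and Ppargc1a). These windows also differed in CpG content, with a median of 17 CpG in those of the leukocyte or widespread isoforms, 5 in those of the liver genes, and 6 in all 32851 windows. GCGTG is the core of the aryl hydrocarbon receptor element and also a form of the core that hypoxia-inducible factors recognise. It was present for 45.2% of members and 30.9% of all genes. TGACG was present for 25.8% and 19.8%, CACGTG for 12.9% and 6.86%, and GTAAACA, a forkhead motif, for 3.23% and 3.54%. The classes differed less in these motifs than in ACGTG. Among leukocyte or widespread isoforms and liver genes, GCGTG was present for 5 of 10 and 3 of 12, and TGACG for 4 of 10 and 4 of 12. CACGTG was present for 2 of 10 and 1 of 12, and GTAAACA for none in either class. These are matches of letters, not sites of binding.

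Levels are given as FPKM, the reads of a gene divided by its transcript length and scaled between libraries. Because these libraries read each transcript from its 3′ end, FPKM was compared between mice for 1 gene and not between genes. Changes are log2 fold changes from limma on log2(FPKM + 0.1), anti-CD40 over control, and a gene was called at an adjusted p under 0.05. Adding a median of ratios scaling gave 6222 genes called over the whole table, as against 6230 without it. Whether the deposited values already carry such a scaling was not tested. Relative depth, read from the smallest steps between low values, lay between 0.870 and 1.13 and includes any such scaling. Per mouse, 14682 to 15547 genes were above the floor of 0.01. After anti-CD40, 25.4% to 25.9% of all FPKM in a mouse belonged to the acute-phase genes Saa1, Saa2, and Saa3, and in controls the share was 0.0448% to 0.380%. One control stood apart in red cell transcripts (mouse 4, summed FPKM of 7 erythroid genes 50532, other controls 7494 to 13469), and 1 anti-CD40 mouse in pancreatic acinar transcripts (mouse 5, summed FPKM of 12 genes 1303, other mice 28.2 to 196). Most of the sum in the other mice was Cela1. Cela3b was at 223 FPKM in mouse 5 and at 0.01 to 0.597 FPKM in the others. Mouse 5 also held the islet transcript Ins2 (7.67 FPKM, 0.01 in the others), and any effect on the members was not tested. All 9 hepatocyte markers tested were above the floor in every mouse.

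Of the 33 genes, 31 passed the filter of a mean FPKM of at least 0.1. In these, 13 rose, 11 fell, and 7 were not called. Across all 13807 genes tested, 45.1% were called, 23.5% higher and 21.7% lower. For 20 of the 31, no anti-CD40 mouse lay within the range of the control mice, as for 42.4% of all genes tested. The median log2 fold change of the 31 was -0.01, as against 0.01 over all genes tested. The direction divided by class, although the classes too were chosen with earlier results of these data known. In the deposited positions (mm10), the genes that moved most include Slc16a3 at chr11:120948484-120959000, Pkm at chr9:59656368-59679375, Slc2a2 at chr3:28697903-28728360, Aldoc at chr11:78323073-78327778, and Pygl at chr12:70190815-70227683. All 11 leukocyte or widespread isoforms rose, with a median log2 fold change of 1.32, and 10 of them had groups that did not overlap. Of the 13 liver genes, 8 fell, 1 rose, and 4 were not called, with a median of -0.70. Of the other 7 tested, 1 rose, 3 fell, and 3 were not called. Without anti-CD40 mouse 2, 9 genes rose and 6 fell, without anti-CD40 mouse 5, 11 rose and 7 fell, and without control mouse 4, 13 rose and 11 fell. When the Saa genes were removed and the remaining FPKM were set to equal totals, all genes tested moved by a median of 0.35 and 77.4% of calls were higher, as against 52.0% without this step. Of the members, 13 then rose and 6 fell, and the calls for Gapdh, Pklr, Fbp1, G6pc, and Pck1 were lost (limma adjusted p 0.0533 to 0.899). With quantile normalization, those for Gapdh, Slc2a1, Slc2a3, Fbp1, G6pc, and Pck1 were lost (limma adjusted p 0.0554 to 0.522). With no filter on low values, those for Pfkfb3, Gapdh, Pklr, Slc2a3, G6pc, and Pck1 were lost (limma adjusted p 0.0584 to 0.0957).

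**Figure D1:**
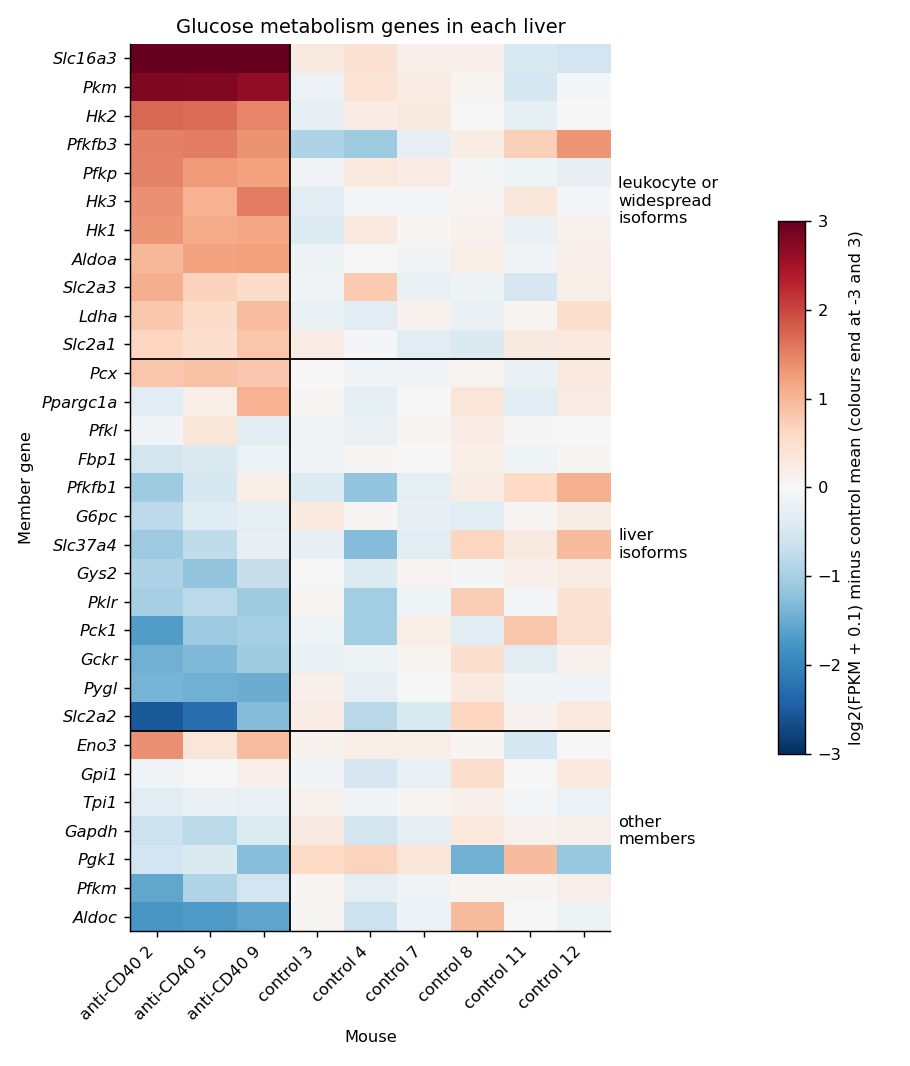
Each row is 1 of the 31 tested genes and each column 1 mouse. The colour gives log2(FPKM + 0.1) minus the mean of the 6 control mice, red for higher and blue for lower, with colours ending at -3 and 3. The 11 leukocyte or widespread isoforms were red in all 3 anti-CD40 mice, and most liver genes were blue, whereas Pcx was red.

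Markers of several cell types moved with these classes. All 11 neutrophil markers tested rose, and the summed FPKM of the 13 neutrophil genes in the table was 6972 to 7717 after anti-CD40 and 22.5 to 162 in controls. Most of the sum after anti-CD40 was S100a8 (2916 to 3677 FPKM), Lcn2 (1916 to 2768 FPKM), and S100a9 (1239 to 1619 FPKM). Such sums follow their highest genes and do not count cells, and which cells held these transcripts was not tested. Elane and Mpo, granule enzymes of immature neutrophils, were too low to test. Of 12 monocyte and macrophage markers, 9 rose and 1 (Adgre1) fell, and their sum was 371 to 500.3 as against 49.2 to 85.8. The lymphocyte markers also rose, in 6 of 7 T cell genes, 4 of 4 B cell genes, and 5 of 5 NK cell genes tested. All 5 Kupffer cell markers fell, from sums of 268 to 425 in the control mice to 37.2 to 48.1. All 9 hepatocyte markers fell, with a median log2 fold change of -1.49 and sums of 8588 to 10395 as against 23064 to 39718. Markers of other liver cells were mixed. Of 5 cholangiocyte genes 2 rose (Sox9, log2 fold change 3.57, and Spp1, 2.39), of 6 stellate cell genes 2 rose (Col1a1, 1.79, and Col3a1, 1.65) and 2 fell, and of 6 endothelial genes 2 rose (Lyve1, 2.08, and Pecam1, 0.60) and 3 fell. The part that these marker differences have in the results below was not tested.

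Transport of glucose and lactate held the largest increase of the set. Slc16a3 encodes MCT4, which exports lactate from glycolytic cells. Slc16a3 was at 17.2, 13.96, and 14.02 FPKM in anti-CD40 mice 2, 5, and 9, and at 0.331 to 0.777 FPKM (median 0.618) in the control mice. Every anti-CD40 mouse was far above every control, and the means differed 26.8-fold (15.1 ± 1.88 and 0.563 ± 0.178, SD, n = 3 and 6). The log2 fold change was 4.56 (SE 0.24, limma adjusted p = 6.14e-07). Slc2a1 encodes GLUT1, the widespread glucose carrier. Slc2a1 was at 3.89, 3.48, and 4.44 FPKM after anti-CD40 and at 1.78 to 3.02 FPKM (median 2.59) in the control mice. The groups did not overlap, although the gap was small, and the log2 fold change was 0.67 (SE 0.19, limma adjusted p = 0.0164). Without anti-CD40 mouse 2 or 9, Slc2a1 was not called (highest adjusted p 0.0767). Slc2a3 encodes GLUT3, a carrier of neurons and leukocytes. Slc2a3 was low throughout, at 0.504, 0.357, and 0.315 FPKM after anti-CD40 and 0.0986 to 0.387 FPKM (median 0.162) in the control mice. Control mouse 4 was above 2 of the anti-CD40 mice, and the log2 fold change of 0.78 (SE 0.28, limma adjusted p = 0.0458) was the call closest to the threshold. The call for Slc2a3 held without control mouse 4 and was lost without any other 1 mouse (highest adjusted p 0.182).

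Slc2a2 moved in the opposite direction. It encodes GLUT2, the hepatocyte glucose carrier. It was at 8.33, 10.1, and 19.7 FPKM in anti-CD40 mice 2, 5, and 9 and at 27.2 to 75.5 FPKM (median 54.4) in the control mice. The groups did not overlap, and the mean after anti-CD40 was 24.8% of the control mean. The log2 fold change was -2.02 (SE 0.35, limma adjusted p = 0.000847), and anti-CD40 mouse 9 was closest to the control mice.

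**Figure D2:**
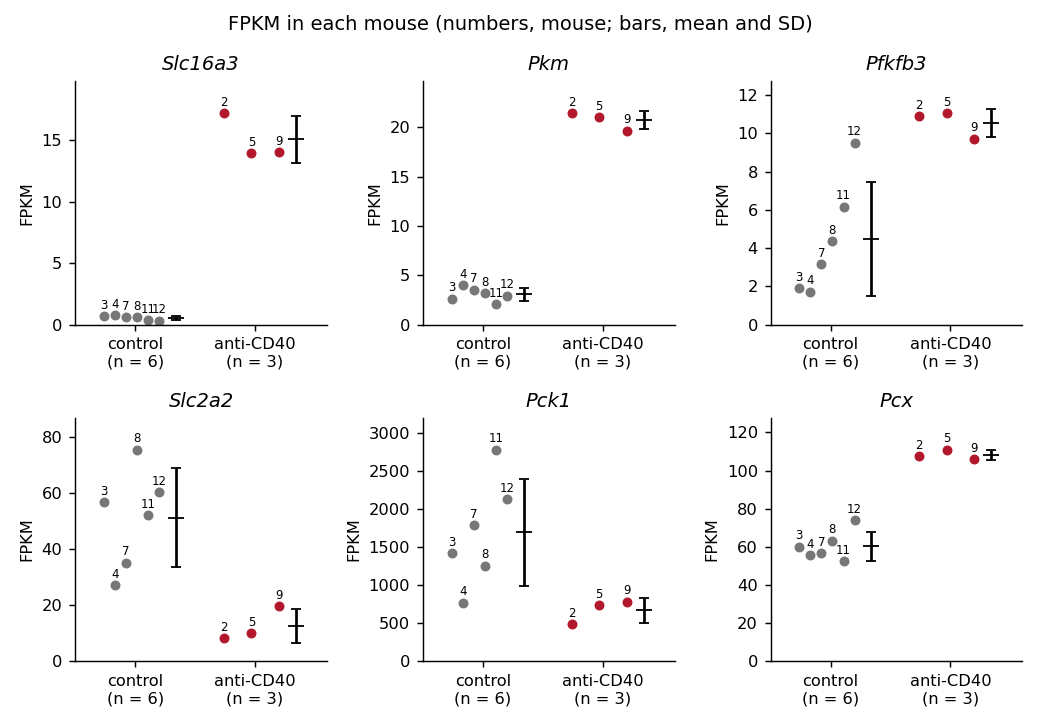
FPKM (vertical axis, linear and from 0) of 6 members in each of the 6 control mice and 3 anti-CD40 mice. Points are mice with their numbers, and bars are the mean and SD. Slc16a3, Pkm, and Pcx show a wide gap between the groups, Pfkfb3 and Pck1 a wide spread among the control mice, and in Pck1 the lowest control (mouse 4, 770 FPKM) lies below anti-CD40 mouse 9 (783 FPKM).

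The 3 hexokinases, which phosphorylate glucose in tissues outside the liver and in leukocytes, all rose. Hk2, the inducible form of muscle and activated immune cells, was at 2.39, 2.31, and 1.98 FPKM in anti-CD40 mice 2, 5, and 9 and at 0.518 to 0.817 FPKM (median 0.665) in the control mice. The groups were well apart, and the log2 fold change was 1.61 (SE 0.17, limma adjusted p = 3.78e-05). Hk3, the form found mainly in myeloid cells, was at 0.788, 0.606, and 0.880 FPKM after anti-CD40 and 0.175 to 0.334 FPKM (median 0.234) in the control mice. Its groups did not overlap, its log2 fold change was 1.32 (SE 0.20, limma adjusted p = 0.000349), and its locus overlaps that of Unc5a. Hk1, the form of most tissues, was at 3.63, 3.12, and 3.26 FPKM after anti-CD40 and 1.03 to 1.74 FPKM in the control mice. It had a log2 fold change of 1.19 (SE 0.17, limma adjusted p = 0.000256), and its locus overlaps that of the antisense gene Hk1os. Gckr, which encodes a regulator of glucose phosphorylation in hepatocytes, fell. It was at 39.6, 43.4, and 51.9 FPKM after anti-CD40 and at 87.3 to 151 FPKM (median 106) in the control mice. No anti-CD40 mouse reached the lowest control, and the log2 fold change was -1.28 (SE 0.17, limma adjusted p = 0.000188).

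Phosphofructokinase commits sugar to glycolysis, and the bifunctional PFKFB enzymes set the level of its activator, fructose 2,6-bisphosphate. Pfkp, the platelet isoform, was at 5.48, 4.75, and 4.51 FPKM after anti-CD40 and at 1.57 to 2.35 FPKM (median 1.80) in the control mice. Its groups did not overlap, and the log2 fold change was 1.33 (SE 0.15, limma adjusted p = 6.71e-05). Its locus overlaps that of Pitrm1. Pfkl, the liver isoform, was at 1.79 to 2.93 FPKM after anti-CD40 and 1.92 to 2.67 FPKM in the control mice, so the anti-CD40 mice lay on both sides of the controls (log2 fold change -0.01, SE 0.17, limma adjusted p = 0.966). Pfkm, the muscle isoform, fell, from 0.742 to 1.04 FPKM in the control mice to 0.242, 0.441, and 0.572 FPKM (log2 fold change -1.01, SE 0.22, limma adjusted p = 0.00331), and its locus overlaps that of Senp1.

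Pfkfb3 and Pfkfb1 both varied widely among the control mice. Pfkfb3, the inducible form with high kinase activity, was at 10.9, 11.1, and 9.74 FPKM after anti-CD40. In the control mice it was at 1.73 to 9.53 FPKM (median 3.77), a 5.51-fold range, so that control mouse 12 came close to the lowest anti-CD40 mouse. The log2 fold change was 1.47 (SE 0.47, limma adjusted p = 0.0272). The call was lost without any 1 of the 3 anti-CD40 mice, with a highest adjusted p of 0.0818. Pfkfb1, the liver form, was at 4.15, 6.04, and 10.1 FPKM after anti-CD40 and 3.79 to 18.5 FPKM (median 8.68) in the control mice. The groups overlapped and Pfkfb1 was not called (log2 fold change -0.46, SE 0.45, limma adjusted p = 0.430).

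The middle steps of glycolysis, from glucose 6-phosphate to phosphoenolpyruvate, did not move as 1 group. Of 9 genes, 7 were tested, 2 rose, 2 fell, and 3 were not called. Aldoa, the aldolase of muscle and most other cells, was at 80.1, 92.6, and 94.5 FPKM after anti-CD40 and at 36.1 to 45.5 FPKM (median 39.3) in the control mice. The control mice lay close together, and the log2 fold change was 1.14 (SE 0.11, limma adjusted p = 2.34e-05). Aldoc, the brain aldolase, was at 2.01, 2.09, and 2.29 FPKM after anti-CD40 and at 4.43 to 13.7 FPKM (median 6.67) in the control mice. All 3 anti-CD40 mice were below the lowest control, and the log2 fold change was -1.68 (SE 0.28, limma adjusted p = 0.000724). Eno3, the muscle enolase, rose, from 1.74 to 2.97 FPKM in the control mice to 6.73, 3.31, and 4.97 FPKM in anti-CD40 mice 2, 5, and 9. Its groups did not overlap, and the log2 fold change was 0.89 (SE 0.23, limma adjusted p = 0.00922). Without anti-CD40 mouse 2, Eno3 was no longer called (limma adjusted p = 0.0565).

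The remaining middle enzymes changed less. Gapdh, which makes 1,3-bisphosphoglycerate, was at 19.8, 17.5, and 23.2 FPKM after anti-CD40 and at 21.0 to 38.1 FPKM (median 33.9) in the control mice. Control mouse 4 lay below anti-CD40 mouse 9, and the log2 fold change was -0.62 (SE 0.20, limma adjusted p = 0.0269). The call for Gapdh was lost without anti-CD40 mouse 2 or 5 and without control mouse 3 or 11 (highest adjusted p 0.111). The last 300 bases of its transcript match 62 other annotated genes at 98% identity or more over at least 75 bases, so its level is uncertain. Tpi1, triose phosphate isomerase, was at 108, 117, and 114 FPKM after anti-CD40 and at 118 to 149 FPKM (median 133) in the control mice. Its groups did not overlap, yet it was not called (log2 fold change -0.24, SE 0.11, limma adjusted p = 0.0858) and took the opposite sign with quantile normalization (0.16) or without the Saa genes (0.12). Its locus overlaps that of Spsb2, and its 3′ end matches Tpi-rs11. Gpi1, glucose phosphate isomerase, was at 24.7 to 29.7 FPKM after anti-CD40 and 19.0 to 38.7 FPKM in the control mice (log2 fold change 0.01, SE 0.20, limma adjusted p = 0.971). Pgk1, phosphoglycerate kinase, was at 1.43 to 2.64 FPKM after anti-CD40. In the control mice it was at 1.27 and 1.58 FPKM in mice 8 and 12 and at 4.67 to 7.09 FPKM in the other 4, and it was not called (log2 fold change -0.76, SE 0.53, limma adjusted p = 0.272). Neither Pgam1 nor Eno1 passed the filter. Pgam1 did not exceed 0.118 FPKM, the value of at least 4 reads in mouse 5, and Eno1 was listed at the floor of 0.01 in all 9 mice. The 3′ end of Eno1 matches that of the annotated copy Eno1b, so reads of the 2 may not have been told apart. The listed floor of Eno1 does not show that its transcript was absent, and nor do the low values of Pgam1.

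Pyruvate kinase makes pyruvate at the end of glycolysis, and its leukocyte and liver genes moved apart. Pkm, which encodes the M forms of leukocytes, muscle, and proliferating cells, was at 21.5, 21.1, and 19.7 FPKM in anti-CD40 mice 2, 5, and 9 and at 2.09 to 4.04 FPKM (median 3.06) in the control mice. The means differed 6.75-fold (20.7 ± 0.940 and 3.07 ± 0.687, SD, n = 3 and 6), and the log2 fold change was 2.74 (SE 0.19, limma adjusted p = 2.44e-06). The 3′ libraries do not tell the M1 and M2 splice forms apart. Pklr, the liver and red cell gene, was at 2.20, 2.52, and 2.12 FPKM after anti-CD40 and at 2.13 to 7.56 FPKM (median 4.54) in the control mice. Control mouse 4 lay among the anti-CD40 mice, and the log2 fold change was -0.96 (SE 0.32, limma adjusted p = 0.0316). The call for Pklr was lost without any 1 of the anti-CD40 mice and without control mice 3 or 12 (highest adjusted p 0.0951), and its 3′ end matches a stretch of the neighbouring gene Hcn3. Ldha, lactate dehydrogenase A, was at 552, 465, and 605 FPKM after anti-CD40 and at 253 to 457 FPKM (median 304) in the control mice. The groups did not overlap, although control mouse 12 (457 FPKM) came close to the lowest anti-CD40 mouse, and the log2 fold change was 0.77 (SE 0.19, limma adjusted p = 0.00674).

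**Figure D3:**
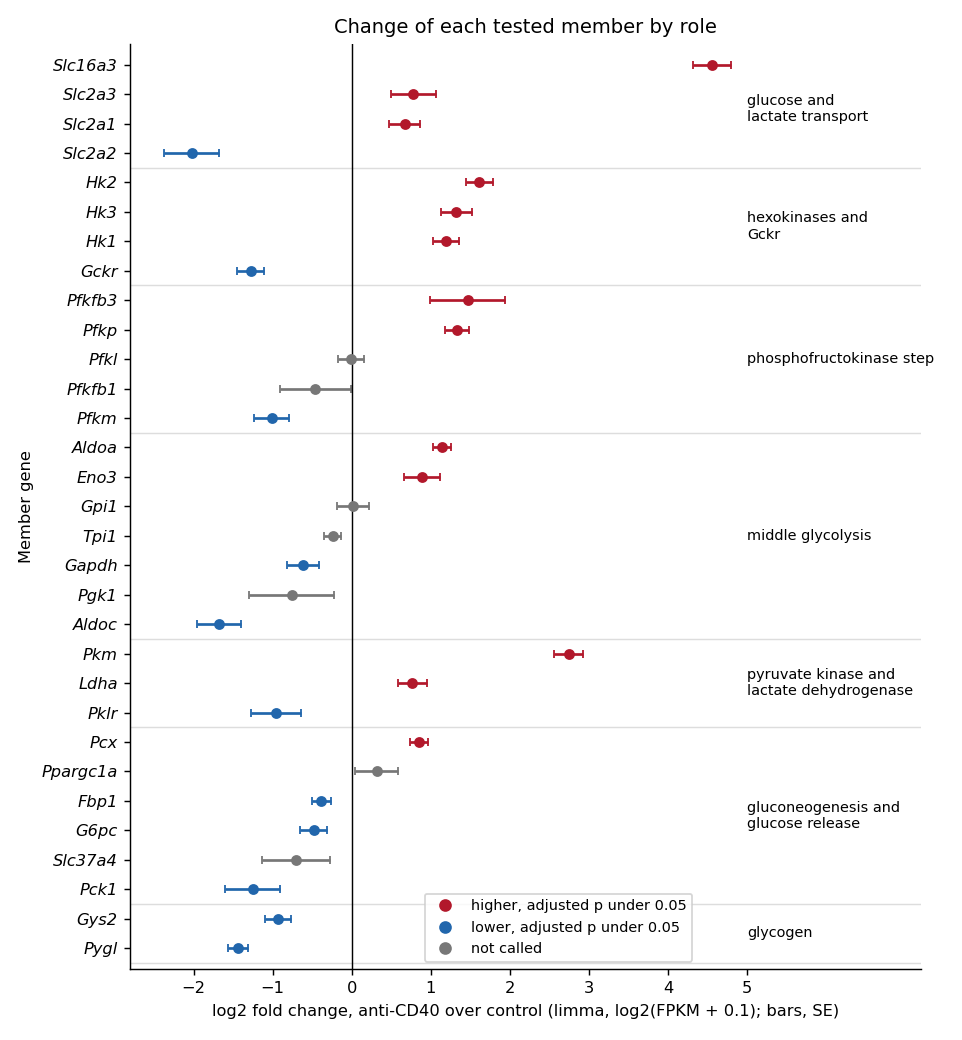
Log2 fold change of each of the 31 tested genes, anti-CD40 over control (horizontal axis), with the SE from limma as bars, grouped by role. Red points rose, blue points fell, and grey points were not called. Slc16a3 (4.56) and Pkm (2.74) lie farthest to the right, and Slc2a2 (-2.02) lies farthest to the left.

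Gluconeogenesis and glucose release held 6 genes, of which 1 rose, 3 fell, and 2 were not called. Pcx, pyruvate carboxylase, the entry enzyme in mitochondria, was the 1 liver gene of 13 called higher, beside 8 called lower and 4 not called. Pcx was at 108, 111, and 106 FPKM after anti-CD40 and at 52.7 to 74.1 FPKM (median 58.5) in the control mice. The anti-CD40 mice lay close together and well above every control (log2 fold change 0.85, SE 0.12, limma adjusted p = 0.000221). The locus of Pcx overlaps that of Lrfn4, and Pcx also serves other tissues. Pck1, the cytosolic PEP carboxykinase that commits oxaloacetate to glucose, was at 487, 739, and 783 FPKM in anti-CD40 mice 2, 5, and 9. In the control mice it was at 770 to 2780 FPKM (median 1604). The control mice spread 3.61-fold and mouse 4 overlapped the anti-CD40 mice, with a log2 fold change of -1.25 (SE 0.35, limma adjusted p = 0.0145). Without anti-CD40 mouse 2, Pck1 was no longer called (limma adjusted p = 0.0769).

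Fbp1, fructose bisphosphatase, was at 217, 235, and 278 FPKM after anti-CD40 and at 289 to 363 FPKM (median 316) in the control mice. The groups did not overlap, but the difference was small (log2 fold change -0.38, SE 0.12, limma adjusted p = 0.0207) and took the opposite sign with quantile normalization (0.094, limma adjusted p = 0.522). Its call was lost without anti-CD40 mouse 2 or mouse 5 (highest adjusted p 0.109). G6pc, the catalytic subunit of glucose 6-phosphatase, which frees glucose for release, was at 27.5, 37.2, and 38.7 FPKM after anti-CD40 and at 37.6 to 58.5 FPKM (median 48.7) in the control mice. Control mouse 8 lay between the anti-CD40 mice, and the log2 fold change was -0.48 (SE 0.17, limma adjusted p = 0.0392). The call for G6pc was lost without anti-CD40 mouse 2 or 5 and without control mouse 3, 4, 11, or 12 (highest adjusted p 0.193). Slc37a4, the carrier that brings glucose 6-phosphate to that enzyme, was at 27.3 to 49.1 FPKM after anti-CD40 and 23.9 to 114 FPKM in the control mice, and was not called (log2 fold change -0.70, SE 0.43, limma adjusted p = 0.206). Without control mouse 4, Slc37a4 was called lower (log2 fold change -0.96, limma adjusted p = 0.0280). Ppargc1a, the coactivator PGC-1α that drives these genes in fasting, was at 2.08, 3.05, and 5.54 FPKM after anti-CD40 and 2.03 to 3.43 FPKM in the control mice. Only anti-CD40 mouse 9 was above the controls, and Ppargc1a was not called (log2 fold change 0.31, SE 0.28, limma adjusted p = 0.381).

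Both glycogen genes fell, and in both the groups did not overlap. Pygl, the liver phosphorylase that releases glucose 1-phosphate from glycogen, was at 77.5, 75.02, and 72.2 FPKM after anti-CD40 and at 167 to 248 FPKM (median 198) in the control mice. The anti-CD40 mice lay close together at 36.6% of the control mean (log2 fold change -1.44, SE 0.13, limma adjusted p = 1.16e-05). Gys2, the liver glycogen synthase, was at 8.24, 6.86, and 9.82 FPKM after anti-CD40 and at 11.9 to 18.6 FPKM (median 16.2) in the control mice. Its log2 fold change was -0.93 (SE 0.16, limma adjusted p = 0.000917).

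To compare isoforms of 1 step within each mouse, the log2 ratio of a leukocyte or widespread isoform to a liver isoform was computed for 4 pairs. Transcript length cancels in the change of such a ratio but not in its level. In all 4 pairs the ratio was higher in each anti-CD40 mouse than in any control mouse. The ratio of Pkm to Pklr was 3.23, 3.01, and 3.16 on the log2 scale in anti-CD40 mice 2, 5, and 9 and -1.22 to 0.89 in the control mice, a difference of 3.70. That of Slc2a1 to Slc2a2 differed by 2.69, that of Pfkfb3 to Pfkfb1 by 1.93, and that of Pfkp to Pfkl by 1.34. Each pair had a 2-sided exact permutation p of 0.0238 over the 84 splits of the mice, the smallest this design allows, and 0.0238 after adjustment over the 4 pairs. The genes of the pairs were chosen with earlier results of these data known. In every anti-CD40 mouse Slc2a1 was above and Slc2a2 below all control mice, so that pair had to separate. These p values therefore add no support beyond the values of the single members. In the control mice the ratio of Pfkfb3 to Pfkfb1 ran from -1.72 to -0.95 on the log2 scale (SD 0.27). The genes alone ranged 5.51-fold and 4.88-fold in the same mice, on the linear scale.

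**Figure D4:**
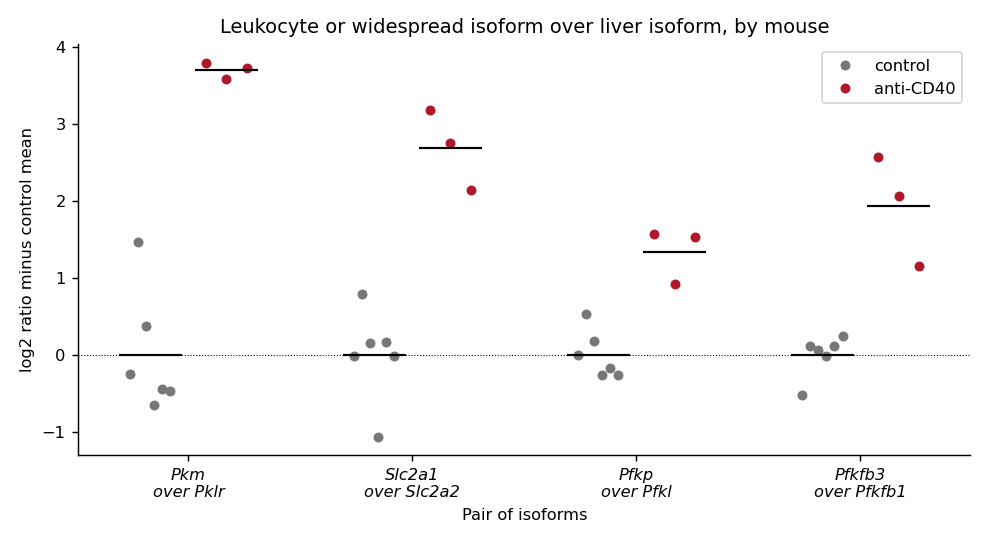
Log2 ratio of a leukocyte or widespread isoform to a liver isoform, minus the control mean (vertical axis), for 4 pairs. Points are mice (grey, 6 control; red, 3 anti-CD40) and lines are group means. The 3 anti-CD40 mice lie above all 6 control mice in each pair, by the widest mean difference for Pkm over Pklr (3.70) and the narrowest for Pfkp over Pfkl (1.34).

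Other genes were read from 9 lists with 165 genes, of which 156 were tested, 21 rose, 68 fell, and 67 were not called (median log2 fold change -0.46). Over all genes tested, 45.1% were called, 23.5% higher and 21.7% lower, and the counts of each list are to be read beside these shares. Besides glucose metabolism, the lists cover fasting response genes, fed state lipogenic genes, and HIF1 pathway genes outside it, so these totals are not those of glucose metabolism alone. In other glycolysis and fructose genes, 3 of 23 rose and 10 fell. Slc2a6, which encodes a GLUT family protein of leukocytes, rose from 0.01 to 0.150 FPKM in the control mice to 2.63, 2.79, and 2.68 FPKM (log2 fold change 4.26, SE 0.28, limma adjusted p = 1.97e-06). Pfkfb4 and Pfkfb2, which like Pfkfb3 make fructose 2,6-bisphosphate, rose by log2 fold changes of 1.49 and 0.63. Khk, the ketohexokinase that starts fructose breakdown, fell from 244 to 538 FPKM to 63.0 to 74.4 FPKM (log2 fold change -2.35), and Slc2a4, the insulin-responsive GLUT4, fell at low levels (log2 fold change -1.59). In other gluconeogenesis genes, none of 17 rose and 8 fell by limma, among them Gpt (-1.69), the alanine aminotransferase, Slc25a10 (-1.62), the dicarboxylate carrier, and Mdh1 (-1.07), the cytosolic malate dehydrogenase, as log2 fold changes.

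Of 24 other glycogen genes tested, 5 rose and 8 fell. Those that rose included Gys1 (log2 fold change 0.995), the glycogen synthase of muscle and most other tissues, whereas the liver gene Gys2 fell as above. Among the genes whose enzymes move phosphate on sugars, Pgm1 (1.62) rose and Pgm2 (-0.70, limma adjusted p = 0.00546) fell. In the control mice Pgm1 was at 0.327 to 0.905 FPKM and Pgm2 at 121 to 193 FPKM. Pgm3 (1.04) also rose and is counted among the 5, although its enzyme acts on an amino sugar and not in glycogen turnover. The 8 that fell included Ppp1r3b (-1.77), which brings protein phosphatase to liver glycogen, Ugp2 (-1.25), which makes UDP-glucose, and Pygm (-0.90), the muscle phosphorylase. In the pentose phosphate pathway, 3 of 9 rose and 3 fell. The rises were in G6pdx (log2 fold change 1.70) and Pgd (0.75), which encode NADPH-making enzymes of the cytosol, and in Rpia (0.82), whereas H6pd, for the NADPH-making enzyme of the endoplasmic reticulum, was not called (0.15, limma adjusted p = 0.680). Falls in Shpk (-1.30) and Tkt (-0.72) had groups that did not overlap.

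Genes for the entry of pyruvate into mitochondria mostly fell, with 8 of 13 lower and 2 higher. Mpc2 and Mpc1, the mitochondrial pyruvate carrier, had log2 fold changes of -1.24 and -1.16. The pyruvate dehydrogenase kinases, which switch that enzyme off, divided into 2 that rose and 2 that fell. Pdk3 (log2 fold change 2.47) rose with groups that did not overlap and Pdk4 (1.95) with groups that did, whereas Pdk1 (-1.80) and Pdk2 (-1.08) fell without overlap. Among hormone receptors and regulators, 3 of 29 rose and 11 fell. Mlxipl, which encodes the glucose-sensing factor ChREBP, fell from 28.0 to 39.4 FPKM to 10.0 to 11.0 FPKM (log2 fold change -1.60), and Cebpa (-1.49) and Irs1 (-1.14), an insulin receptor substrate, fell. Prkaa1 (0.55), an AMPK catalytic subunit, and Creb1 (0.39) rose. Prkaa2, the other AMPK catalytic subunit, fell without overlap (-0.57, limma adjusted p = 0.00964).

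The lists of feeding state did not move alike. All 9 fed state lipogenic genes tested fell, with a median log2 fold change of -1.68, led by Thrsp (-5.02), Scd1 (-3.55), and Srebf1 (-2.54). Of 12 fasting response genes, 2 rose, 2 fell, and 8 were not called. Igfbp1, an insulin-repressed binding protein, rose from 284 to 525 FPKM to 1267 to 2709 FPKM (log2 fold change 2.56), and Fgf21, a hepatokine, from 0.0651 to 3.89 FPKM to 8.16 to 11.6 FPKM (3.62), whereas Fabp1, a fatty acid binding protein, fell (-2.05). Of 20 HIF1 pathway genes and targets outside glycolysis, 3 rose and 9 fell. Hif1a itself, the subunit that activates many glycolysis genes, was at 23.1, 20.8, and 18.3 FPKM in anti-CD40 mice 2, 5, and 9 and at 8.70 to 10.6 FPKM in the control mice. All anti-CD40 mice were above all control mice (log2 fold change 1.11, SE 0.11, limma adjusted p = 2.65e-05). Adm (0.79) also rose, whereas Higd1a (-1.20), Egln2 (-1.19), and Bnip3 (-0.99) fell. These counts stand beside 45.1% of all genes called, and the lists were not tested as sets.

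**Figure D5:**
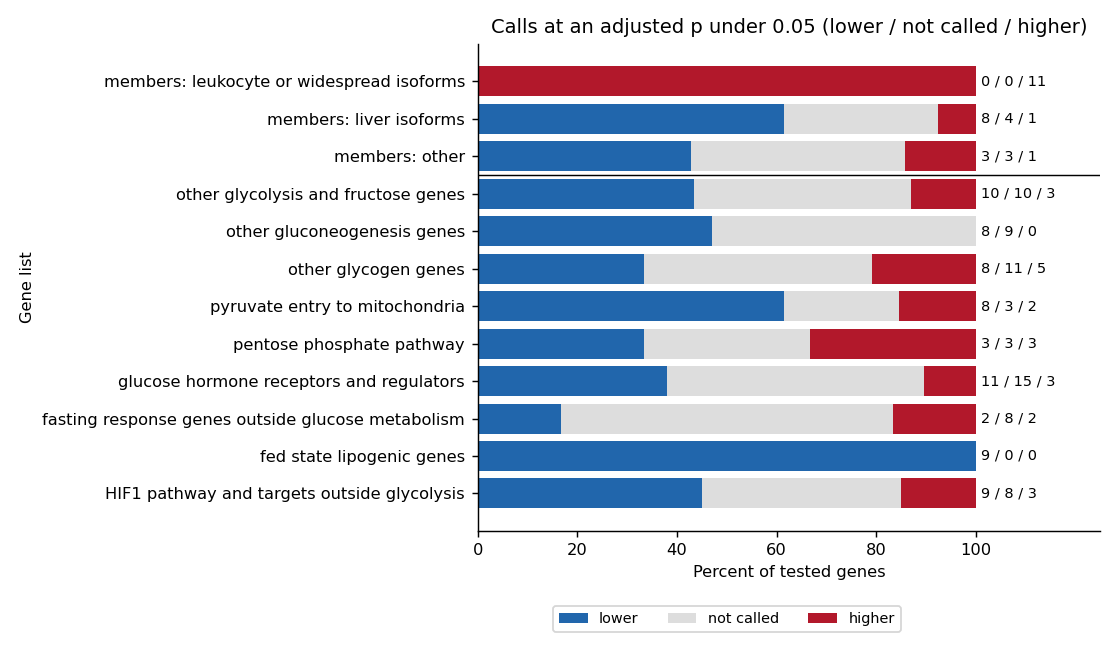
Share of tested genes (horizontal axis, percent) that were lower (blue), not called (grey), or higher (red) in each of the 3 classes of members and the 9 other lists, with the numbers at the right in that order. Red fills the bar of the leukocyte or widespread isoforms (11 of 11), and blue fills that of the fed state lipogenic genes (9 of 9).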

How the data were processed

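Libraries from 9 livers were made with the QuantSeq 3′ mRNA kit. The authors mapped their reads to mm10 (STAR) and derived FPKM values with Cufflinks and CuffDiff. The deposited FPKM have a floor of 0.01 and a word in place of a number where the estimate failed (15 genes, left out). The annotation is not given in the sources used here. Mice were grouped by sample title.
A gene entered the fit when its FPKM averaged 0.1 or more over the 9 mice (13807 genes). Values were transformed as log2(FPKM + 0.1) and compared in limma 3.58.1 (R 4.3.3) by a trended, 2-sided eBayes model of treatment alone, with Benjamini-Hochberg adjustment over all of them. Isoform ratios were tested by a 2-sided exact permutation test. The members, classes, and lists were chosen from general knowledge, with earlier results of these data known. All 33 members were named, and from each other list up to 3 genes per direction with an adjusted p under 0.05, groups that did not overlap, and the largest change. Outside this rule, H6pd, Pgm2, Pdk2, Pdk4, and Prkaa2 were named beside related genes. Some genes of these lists, and 2 planned ratios that need them, are not reported here. Alternatives were pseudocounts of 1 and 0.01, other filters, quantile or median of ratios scaling, equal totals without the Saa genes, other eBayes settings, array weights, a 2-fold requirement, failed estimates kept, and each mouse left out. In simulated data with 200 of 13807 genes changed between these groups, 63% of log2 changes of 1 and 92% of those of 2 were recovered, with 5 false calls. In the data 45.1% of genes were called, a far larger share, so these rates need not hold for the real fit. Read totals are not given, so absolute depth is unknown and no interval that needs it was computed. Whole reads were recovered for 36.9% of 3216 low genes, so no count test was run. Overlapping loci were read from the deposited positions, matches of the last 300 transcript bases with BLAST 2.17.0 against GENCODE transcripts, and promoters from RefSeq (GRCm38.p6). All else was done in Python 3.11.15 (numpy 2.4.6, pandas 2.3.3), with plots by matplotlib 3.10.9.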

Additional observations from a re-analysis of the deposited data

Results flagged for a closer look

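Among 35 results examined (31 members and 4 isoform ratios), 2 had a control mouse far from the other 5, where chance would give about 1.75. For Eno3, control mouse 11 was the lowest (1.74 FPKM, other control mice 2.52 to 2.97 FPKM), and its gap to the next mouse was 0.695 of the range of the group on the log2 scale. For the log2 ratio of Pfkfb3 to Pfkfb1, control mouse 3 was the lowest (-1.72, other control mice -1.21 to -0.95), with a gap of 0.662 of the range. Both exceed the 95% critical value of Dixon's test for 6 samples. Groups of 3 mice were not examined in this way.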

How the results depend on the processing

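Of the 24 members called, 15 kept their call and direction under each alternative run for them other than the 2-fold requirement, under which Ldha, Pcx, and Gys2 of these were not called. Hk3, Pfkm, and Slc2a3 had no value at a mean FPKM of at least 1. The 15 were 8 of the 11 leukocyte or widespread isoforms, 5 of the 9 liver genes called, and Pfkm and Aldoc. Pfkfb3, Gapdh, Eno3, Pklr, Slc2a1, Slc2a3, Fbp1, G6pc, and Pck1 lost theirs under at least 1. No filter gave 7 members lower (5 liver genes), quantile normalization also 7 (5), and equal totals without the Saa genes 6 (4), with 5633 genes higher and 1647 lower over the table. Requiring 2-fold left 8 members higher and 6 lower (4 liver genes), and 1889 and 1253 genes over the table. With each mouse left out, 9 to 13 members were higher and 6 to 11 lower, with 4 to 8 liver genes lower, fewest without anti-CD40 mouse 2. The isoform ratios kept their direction, with ranges of 3.57 to 4.00 (Pkm over Pklr), 2.45 to 2.97 (Slc2a1 over Slc2a2), 1.23 to 1.55 (Pfkp over Pfkl), and 1.61 to 2.32 (Pfkfb3 over Pfkfb1). Without an anti-CD40 mouse the smallest p is 0.0714, so none could pass. Signs reversed in Tpi1 (0.16 with quantile normalization, 0.12 without the Saa genes), Fbp1 (0.094 with quantile normalization), and Pfkl (0.34 without the Saa genes). With a mouse left out, Pfkl ranged from -0.20 to 0.14, Gpi1 from -0.087 to 0.12, and Ppargc1a from -0.055 to 0.63, none called. The cause was not tested. No paired analysis was possible because the groups share no mouse numbers.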

Other observations

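The 6 control mice ranked in the same order for Pfkfb1 and Pfkfb3, from mouse 4 (3.79 and 1.73 FPKM) through mice 3, 7, 8, and 11 to mouse 12 (18.5 and 9.53 FPKM). These genes encode the same kind of enzyme on different chromosomes (X and 2). The shared order was noticed after the values were seen and was not tested. Slc37a4 also had mouse 4 lowest (23.9 FPKM) and mouse 12 highest (114 FPKM), with another order between them. Over the 31 tested members, control mouse 4 was the lowest control in 14 and control mouse 8 the highest in 12.

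Pgk1 fell into 2 clusters among the control mice, mice 8 and 12 at 1.27 and 1.58 FPKM and the other 4 at 4.67 to 7.09 FPKM, with the 3 anti-CD40 mice at 1.43 to 2.64 FPKM.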
